A study of Mus musculus with 6 samples.

Results

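Cd9 and its relatives are tetraspanins, small proteins that cross the membrane several times and carry a small and a large extracellular loop. The set described here was named as Cd9, Cd81, Cd63, Cd82, Cd151, Cd37, Cd53, Tspan4, Tspan7 and Tspan12, and its members are those probe sets of the array whose annotation gives exactly 1 symbol, that of a named gene. Of the 10 genes, 9 were found this way, with 81 of the 212097 probe sets that carry 1 symbol. Tspan7 is not analysed here. Cd9 was chosen on its measured difference between the clones on these same arrays, so that difference is a description and is given without a p-value. Counts of called genes include Cd9, and its call is no support for the difference. The others were put beside it as relatives, with those results known.

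The cells were MIN6-4N, a mouse insulinoma line of the pancreatic beta cell. The Meg3 group was 3 independent cultures of 1 clone with stably integrated pcDNA3.1-mMeg3, a plasmid that carries the mouse long non-coding RNA Meg3. The vector group was 3 independent cultures of 1 clone with integrated pcDNA3.1 alone. Both clones had been through nucleofection and G418 selection at 750 µg/ml for 5 weeks, and were then kept in low-glucose medium with 15% serum and 500 µg/ml G418. With 1 clone a group, the plasmid and other differences between the clones cannot be told apart, and every p-value is set against culture-to-culture spread alone. The labels give the Meg3 clone more than 1 name, and they mention sorted cells without a protocol for a sort.

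Tetraspanins act as organisers: they bind each other and partner proteins sideways in the membrane, which gathers integrins, growth factor precursors and proteases into patches. Several, Cd9, Cd81 and Cd63 above all, are enriched on extracellular vesicles and serve as markers of them. In human islets CD9 has been used at the cell surface to separate subsets of beta cells, and TSPAN7 is an autoantigen of autoimmune diabetes.

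Values are on the log2 scale. A gene's value on an array is the mean log2 value of its probe sets, and the median over all 20416 genes was 6.66. How bright a probe set is depends on its sequence as well as on its RNA, so differences were taken between clones and not between genes. Where a gene is called bright or dim, or is set against the median gene, this is only a rough placing. Differences are Meg3 minus vector, with the moderated standard error (SE) or 95% interval of limma. A gene was called at a Benjamini-Hochberg adjusted p under 0.05 over all genes. Meg3 itself averaged 7.56 ± 0.34 in the Meg3 clone and 5.84 ± 0.19 in the vector clone (SD, n = 3 each). Of 10 beta cell markers, 9 lay above the median gene in the higher clone, and Ins2, an insulin gene, averaged 12.60 in the Meg3 clone and 12.54 in the vector clone. Of these 10, 0 were called, and at an unadjusted limma p under 0.05 Ucn3 was higher and Slc2a2 lower. Level did not single out beta cells. By the same measure 3 of 4 other endocrine, 2 of 5 duct, 1 of 7 fibroblast or stellate and 0 of 5 endothelial markers lay above the median gene. The glucagon gene Gcg averaged 12.66 in the Meg3 clone and 12.82 in the vector clone. Ucn3, Slc2a2 and Gcg were named after their values were seen. Of the measured markers of duct (5), fibroblast or stellate (7), endothelial (5) and other endocrine cells (4), 0 were called by limma, and 1 duct marker was lower at an unadjusted p under 0.05. This was the osteopontin gene Spp1 (-0.48, SE 0.12), named after its values were seen. Meg3 replicate 1 and vector replicate 2 stood apart: measured from the median of the remaining arrays, probe sets scattered with an SD of 0.63 and 0.85 on them, where the other 4 arrays had 0.42 to 0.48. Results that rest on these arrays are given with and without them, and Spp1 was called lower without them (-0.56, SE 0.09; limma adjusted p = 0.00821). That fit called 4.01% of all genes lower, against 0.465% with all arrays. The arrays were picked for their spread, so the second set of values is no independent support.

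Cd9 was lower in the Meg3 clone and so was Cd82, and no relative of Cd9 was called higher. The stretches upstream of the annotated starts of both genes are shown because these members were lower together, with that of Cd81, which was not called. Each line gives the 250 bases before a transcript start from RefSeq on GRCm38.p6, on the strand of the gene, 5′ to 3′. Capitals mark the GC box GGGCGG or its reverse complement CCGCCC. For Cd82, which has 4 annotated starts in the table, the one farthest upstream is shown. The places are chr6:125494761-125495010 on the minus strand for Cd9, chr2:93462951-93463200 on the minus strand for Cd82 and chr7:143052500-143052749 on the plus strand for Cd81.
Cd9: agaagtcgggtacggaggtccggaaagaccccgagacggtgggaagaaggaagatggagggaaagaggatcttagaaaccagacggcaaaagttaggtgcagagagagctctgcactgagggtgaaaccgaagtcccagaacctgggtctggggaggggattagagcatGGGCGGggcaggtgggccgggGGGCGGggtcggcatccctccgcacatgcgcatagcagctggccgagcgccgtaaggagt
Cd82: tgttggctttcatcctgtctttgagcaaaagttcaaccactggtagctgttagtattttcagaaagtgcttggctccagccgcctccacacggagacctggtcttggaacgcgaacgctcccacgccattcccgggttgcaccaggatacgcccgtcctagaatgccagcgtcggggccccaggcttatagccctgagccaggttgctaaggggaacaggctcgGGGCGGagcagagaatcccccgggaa
Cd81: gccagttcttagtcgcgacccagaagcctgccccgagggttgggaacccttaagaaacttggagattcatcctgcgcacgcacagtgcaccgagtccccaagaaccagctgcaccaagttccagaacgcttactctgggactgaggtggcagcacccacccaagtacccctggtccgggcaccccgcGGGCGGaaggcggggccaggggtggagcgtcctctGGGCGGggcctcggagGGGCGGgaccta
The window of Cd9 holds 2 GC boxes and 16 CpG dinucleotides, that of Cd82 holds 1 and 14, and that of Cd81 holds 3 and 16. A GC box was found in 32.7% of all 32851 windows of this length, and the median number of CpG was 6. Of 15 annotated starts of the 10 named genes, 8 had one. None of the 3 windows shown held the letters TATAAA or CCAAT on either strand. The Cd82 windows not shown differed. That at chr2:93462503-93462752 holds 1 GC box and 12 CpG. Those at chr2:93461852-93462101 and chr2:93452673-93452922 hold 0 GC boxes, with 11 and 3 CpG, and the former holds 1 CCAAT, both strands counted. GC boxes stood upstream both of genes that were lower and of genes that were not called.

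Cd9, which in mice is needed on the egg for fusion with sperm and which binds integrins and the precursor of HB-EGF, was lower by more than the spread of either clone. Its values were 7.82, 7.61 and 7.31 in the Meg3 cultures, against 9.52, 8.97 and 9.46 in the vector cultures. The groups lay far apart, with vector replicate 2 the lowest of its group and Meg3 replicate 1 the highest of its own. The means were 7.58 ± 0.26 in the Meg3 clone and 9.32 ± 0.30 in the vector clone (SD, n = 3 each), a 3.33-fold lower level (difference -1.74, SE 0.19). Without the arrays that stood apart the difference was -2.03 (SE 0.12), 4.08-fold.

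Single probe sets of Cd9 gave the same direction. All 7 were lower, by -2.36 to -1.30, and in 6 of them the groups did not overlap, where 5.61% of all probe sets lay apart in this direction and 6.00% in the other. Differences below 0 were found in 49.2% of all probe sets. Since Cd9 was chosen for this contrast, nothing is read from these counts. The probe set in which they overlapped was the dimmest, with a mean of 4.40, and vector replicate 2 read 3.60 there, inside the Meg3 range of 3.28 to 4.00. The brightest averaged 9.42 in the Meg3 clone and 11.13 in the vector clone. RNA from bulk cultures does not show whether fewer cells held Cd9 RNA or each cell held less, and these cannot be told apart.

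**Figure D1:**
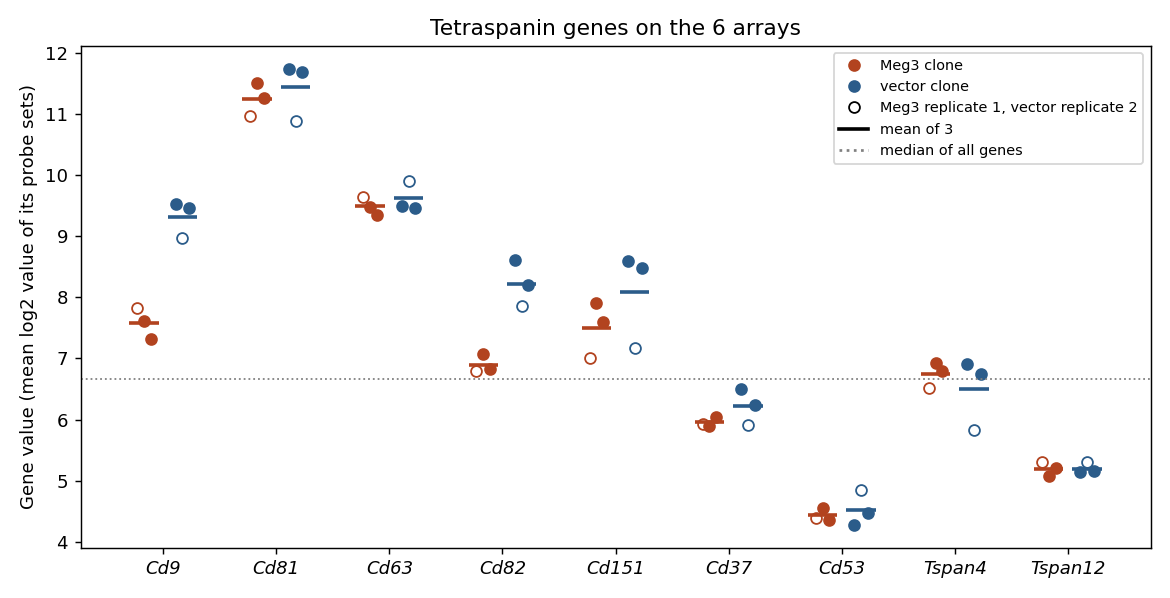
Gene values (log2) of the 9 measured tetraspanins on every array, with the Meg3 clone left of the vector clone for each gene, short bars for the means of 3 and open circles for the arrays that stood apart. Cd9 and Cd82 are the genes in which every Meg3 culture sits below every vector culture, and in Cd151 vector replicate 2 sits among the Meg3 cultures.

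Cd82, also known as KAI1 and described as a suppressor of metastasis, was the other member that was lower. It read 6.79, 7.08 and 6.82 in the Meg3 cultures and 8.61, 7.85 and 8.20 in the vector cultures. The groups did not overlap, and the gap between the highest Meg3 and the lowest vector culture was wider than the range within the Meg3 group. The means were 6.90 ± 0.16 in the Meg3 clone and 8.22 ± 0.38 in the vector clone (SD, n = 3 each), 2.50-fold lower (difference -1.32, SE 0.20; limma adjusted p = 0.0285). All 11 probe sets were lower, by -2.41 to -0.02, and 9 of them did not overlap between the groups. Of all probe sets, 49.2% had a difference below 0 and 5.61% lay apart in this direction. The brightest probe set averaged 8.31 in the Meg3 clone and 10.28 in the vector clone. The smallest difference, -0.02, came from the dimmest probe set, with a mean of 5.01.

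The call for Cd82 was lost when most single arrays were left out, although its size changed little. With 1 array left out at a time the difference stayed between -1.51 and -1.13, and it was called in 1 of 6 fits. Without Meg3 replicate 1, 2 or 3 the limma adjusted p was 0.139, 0.116 or 0.201, and without vector replicate 1 or 3 it was 0.065 or 0.129. Without vector replicate 2 it was 0.00382. Without both arrays that stood apart the difference was -1.46 (SE 0.15; limma adjusted p = 4.81e-04). The counts for the set are therefore 0 called higher and 2 called lower, Cd9 included, of 9 measured. Over all genes 0.666% were called, 0.465% lower and 0.201% higher. Differences were below 0 in 8 of the 9 and in 48.4% of all genes, and the groups lay apart with Meg3 lower in 2 of the 9 and in 6.39% of all genes (6.41% with Meg3 higher). Since Cd9 was chosen for its difference nothing is read from the counts that include it.

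**Figure D2:**
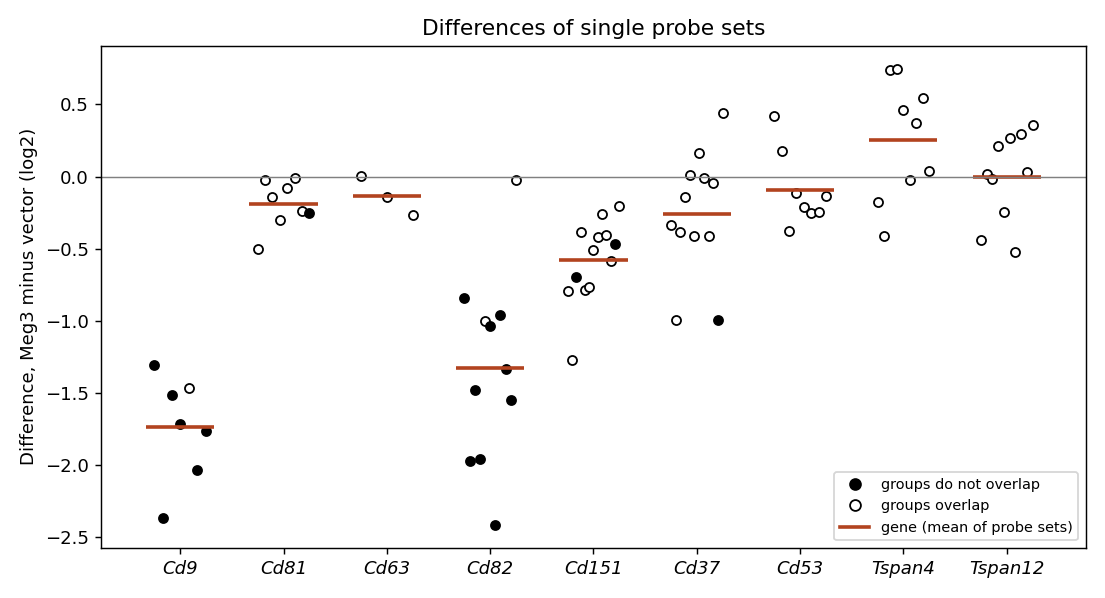
Difference of each probe set (Meg3 minus vector, log2) for the 9 measured tetraspanins, filled where the groups do not overlap, with a bar for the gene. All 7 Cd9 and all 11 Cd82 probe sets lie below 0, and those of Tspan4 and Tspan12 lie on both sides.

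Cd151, which binds the laminin receptors of the integrin family tightly, had lower means in the Meg3 clone, but the groups overlapped. Its values were 7.00, 7.91 and 7.60 in the Meg3 cultures, against 8.59, 7.18 and 8.48 in the vector cultures. Vector replicate 2 lay below both of the higher Meg3 cultures. The difference was -0.58, with a 95% interval from -1.46 to 0.30, and was not called. All 13 probe sets were lower, by -1.27 to -0.21, and in 2 of the 13 the groups did not overlap. Of all probe sets, 49.2% had a difference below 0 and 5.61% lay apart with Meg3 lower.

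The arrays that stood apart read lower for Cd151 than for almost any other gene. Vector replicate 2 minus the mean of the other vector cultures was -1.36, at the 0.896 percentile of all genes, and Meg3 replicate 1 differed from its group by -0.75, at the 2.04 percentile. In single Cd151 probe sets vector replicate 2 differed from the other vector cultures by as much as -3.05, and Meg3 replicate 1 from the other Meg3 cultures by as much as -2.71. Without these arrays the difference was -0.78 (SE 0.12; limma adjusted p = 0.00535), and in that fit 5.44% of all genes were called, 4.01% lower and 1.43% higher. With 1 array left out at a time Cd151 was called in 0 of 6 limma fits.

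**Figure D3:**
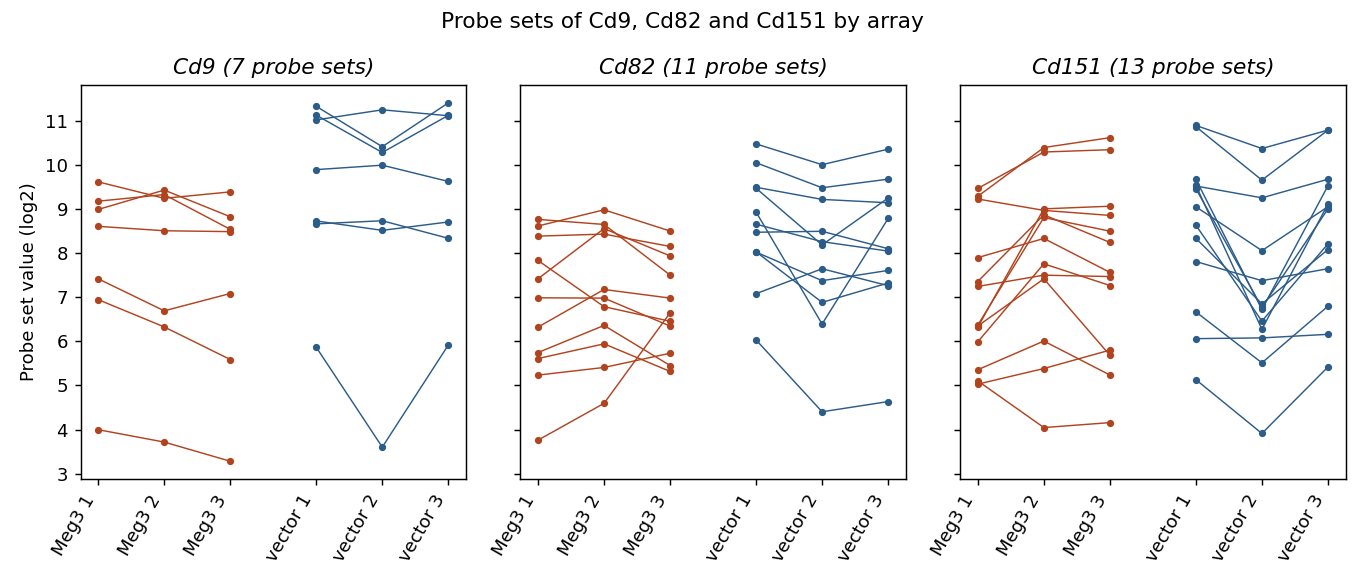
Probe set values (log2) of Cd9, Cd82 and Cd151 on each array, with 1 line per probe set and the Meg3 cultures left of the vector cultures. All 7 Cd9 probe sets have a lower Meg3 mean; 3 of them are low on vector replicate 2, by -2.29, -0.96 and -0.85 from the mean of the other vector cultures, and several Cd151 probe sets are low on that array and on Meg3 replicate 1.

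Cd81, the closest relative of Cd9 in function and a part of the B cell coreceptor, was bright in both clones and was not called. It read 10.97, 11.50 and 11.25 in the Meg3 cultures and 11.74, 10.88 and 11.68 in the vector cultures. Vector replicate 2 was lower than every other array, and the groups overlapped. The difference was -0.19, with an interval from -0.76 to 0.37, so that a rise of more than 1.30-fold lay outside it. All 8 probe sets had negative differences, of -0.50 to -0.01, as did 49.2% of all probe sets on the array with 1 symbol. Without the arrays that stood apart the difference was -0.33 (SE 0.11; limma adjusted p = 0.136).

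Cd63, the tetraspanin of late endosomes and secretory granules, also stayed within the spread of the cultures. It averaged 9.49 ± 0.15 in the Meg3 clone and 9.62 ± 0.24 in the vector clone (SD, n = 3 each). The difference of -0.13 had an interval from -0.49 to 0.22. Only 3 probe sets measure it, and the brightest averaged 12.18 in the Meg3 clone and 12.32 in the vector clone. Without vector replicate 2 its difference was 0.01.

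Cd37 and Cd53, tetraspanins of leukocytes, lay below the median gene in both clones. Cd37 averaged 5.96 ± 0.08 in the Meg3 clone and 6.22 ± 0.30 in the vector clone, and Cd53 averaged 4.44 ± 0.11 and 4.53 ± 0.29 (SD, n = 3 each). Neither was called, with differences of -0.26 (SE 0.16) and -0.09 (SE 0.16). Without the arrays that stood apart Cd37 differed by -0.40 (SE 0.12; limma adjusted p = 0.0913). Cd53 then differed by 0.08 (SE 0.11; limma adjusted p = 0.736). Ptprc, the common leukocyte antigen, averaged 5.24 in the Meg3 clone and 5.15 in the vector clone. Of 13 measured leukocyte markers, 2 lay above the median gene and 0 were called by limma (1 lower at an unadjusted p under 0.05). That marker was the T cell gene Cd3e (-0.56, SE 0.14), named after its values were seen. It was called lower without the arrays that stood apart (-0.72, SE 0.10; limma adjusted p = 0.00238), as were 4.01% of all genes. The mean level of the 13 leukocyte markers ran from 5.54 to 5.57 over the Meg3 cultures and from 5.51 to 5.68 over the vector cultures.

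Tspan4, which builds the retraction fibre vesicles called migrasomes, was the 1 member with a positive difference. It read 6.52, 6.93 and 6.80 in the Meg3 cultures and 6.91, 5.83 and 6.74 in the vector cultures. The groups overlapped, and the low vector mean came from replicate 2, whose difference from the mean of the other vector cultures was -0.99. The difference was 0.26, with an interval from -0.37 to 0.88. It was -0.08 without vector replicate 2, and 0.04 (SE 0.11) without both arrays that stood apart. Of the 9 Tspan4 probe sets, 6 were higher and 3 lower, with differences from -0.41 to 0.75. The brightest had the largest difference, 0.75, and there vector replicate 2 differed from the mean of the other vector cultures by -2.17.

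Tspan12, a component of the Norrin receptor that helps Fzd4 signal in retinal vessels, was dim, with equal means in both clones. It averaged 5.20 ± 0.12 in the Meg3 clone and 5.20 ± 0.09 in the vector clone (SD, n = 3 each), and its interval ran from -0.28 to 0.27. Of its 10 probe sets, 6 were higher and 4 lower. In the Norrin receptor list 0 of 7 genes were called by limma, and 0 had an unadjusted p under 0.05. Its brightest members were Ctnnb1, the beta-catenin gene (-0.33, SE 0.19), and Lrp6, a coreceptor (-0.12, SE 0.12). Without the arrays that stood apart Ctnnb1 was called lower (-0.57, SE 0.13; limma adjusted p = 0.0298), as were 4.01% of all genes.

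Whether another tetraspanin was higher where Cd9 was lower was asked of the 8 other members and of 21 further tetraspanin genes, all of which were measured. None of these 29 genes was called higher by limma, and 0 had a positive difference with an unadjusted p under 0.05. In 0 of the 29 did the 95% interval reach a rise of 1, that is 2-fold, and in 0 did it reach the size of the Cd9 difference. The upper limit that came nearest was 0.94 (1.92-fold), for Tspan15, a partner of the protease Adam10, and this rested on wide spread: its difference was -0.0029 with all arrays and -0.32 without those that stood apart. Without those arrays the highest upper limit of any of the 29 was 0.47 (1.39-fold), for Upk1a, a protein of the bladder lining. These limits hold for each gene alone and not for the sum of several, and they concern RNA. They also depend on how probe sets are summarised. Tspan4 stood at 0.53 (SE 0.27) with the median of probe sets and at 0.75 (SE 0.60) with the brightest. Neither value excludes a 2-fold rise of Tspan4, and with the brightest probe set a rise of the size of the Cd9 difference is not excluded. Tspan12 stood at 0.29 (SE 0.36) with the brightest probe set, which does not exclude a 2-fold rise either. The limits above therefore hold only where a gene is the mean of its probe sets.

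Among the 21 further tetraspanins, 0 were called by limma in either direction, and 1 was lower at an unadjusted p under 0.05, a level that 6.96% of all genes passed in either direction. Their median difference was 0.01, as was that of all genes (0.01), whereas the median of the 8 members other than Cd9 was -0.16. Differences were negative for 9 and positive for 12. Among those with a higher clone mean above the median gene, the largest positive differences were those of Tspan3 and Tspan2, tetraspanins known from oligodendrocytes. Tspan3 averaged 9.76 ± 0.12 in the Meg3 clone and 9.51 ± 0.18 in the vector clone (difference 0.25, SE 0.14), and Tspan2 averaged 9.37 ± 0.31 and 9.26 ± 0.21 (0.11, SE 0.19; SD, n = 3 each). Their groups overlapped.

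The most negative of these were Tspan14 and Tspan17, members of the TspanC8 group that carries Adam10, a sheddase of the cell surface, out of the endoplasmic reticulum. Tspan14 read 6.48, 6.68 and 6.68 in the Meg3 cultures and 7.55, 6.78 and 7.15 in the vector cultures, so the groups lay just apart (difference -0.55, SE 0.19; limma adjusted p = 0.510). Tspan17 read 7.90, 8.11 and 7.97 in the Meg3 cultures and 8.54, 7.96 and 8.71 in the vector cultures, with vector replicate 2 inside the Meg3 range (-0.41, SE 0.20; limma adjusted p = 0.782). Both were called lower without the arrays that stood apart, at -0.67 (SE 0.13; limma adjusted p = 0.0174) and -0.59 (SE 0.11; limma adjusted p = 0.0122). Calls of lower covered 4.01% of all genes in that fit. Without vector replicate 2 alone Tspan17 was called (-0.64; limma adjusted p = 0.0434) and Tspan14 was not (-0.74; limma adjusted p = 0.0531). Of the list of 7 formed by the TspanC8 genes and Adam10, 0 were called with all arrays. Its brightest members, Tspan5 and Adam10, differed by 0.01 (SE 0.12) and -0.29 (SE 0.16).

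**Figure D4:**
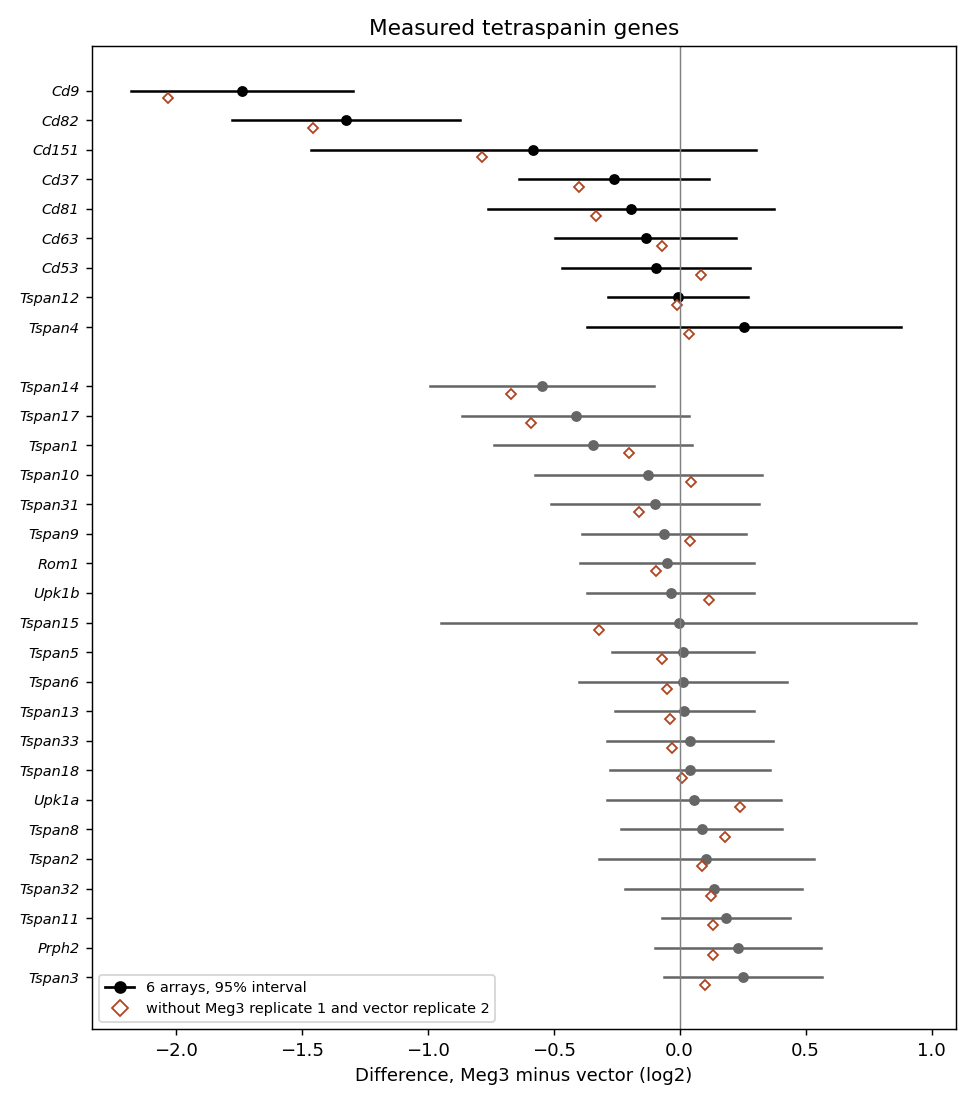
Difference (Meg3 minus vector, log2) of the 9 measured members, above, and of 21 further tetraspanins, below, with 95% intervals over 6 arrays and open diamonds for the difference without Meg3 replicate 1 and vector replicate 2. Cd9 and Cd82 stand to the left, and no interval extends beyond 0.94 on the right.

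Genes of tetraspanin partners were also taken from lists. Of 17 measured candidate partners other than integrins, 2 were called lower and 0 higher by limma, with a median difference of -0.02. Over all genes 0.465% were called lower and 0.201% higher. Cldn1, a claudin of tight junctions that associates with Cd9 and Cd81, read 6.83, 6.62 and 6.74 in the Meg3 cultures and 8.61, 8.47 and 8.60 in the vector cultures (difference -1.83, SE 0.12; limma adjusted p = 0.00150), and was called in 6 of 6 fits without 1 array. Epcam, an epithelial adhesion protein found in complexes with Cd9, read 8.68, 8.81 and 8.70 in the Meg3 cultures and 9.43, 9.46 and 9.47 in the vector cultures (-0.73, SE 0.11; limma adjusted p = 0.0290). In both genes every Meg3 culture lay below every vector culture, as in 6.39% of all genes. Epcam was called in 1 of 6 fits without 1 array, that without vector replicate 2 (0.0169), and had a limma adjusted p from 0.126 to 0.210 in the others. Igsf8 and Ptgfrn, whose immunoglobulin-domain proteins are the most direct partners of Cd9 and Cd81, were chosen after their values were seen. They differed by -0.03 (SE 0.11) and 0.07 (SE 0.15). Hbegf, chosen likewise, differed by 0.12 (SE 0.13). With Meg3 replicate 1 and vector replicate 2 left out, 4 partners were called lower, Cldn1, Epcam, the hyaluronan receptor gene Cd44 (-0.82; limma adjusted p = 0.00132) and the interferon-induced membrane protein gene Ifitm2 (-0.96; limma adjusted p = 0.00743). In that fit 4.01% of all genes were called lower.

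Of 12 integrin genes, 0 were called by limma with all arrays, and 2 were lower and 0 higher at an unadjusted p under 0.05. The brightest, Itgb1, the common beta chain, and Itgav, a chain of vitronectin receptors, differed by -0.11 (SE 0.14) and -0.18 (SE 0.13). Itga6, the laminin receptor chain that pairs with Cd151, was chosen after its values were seen. It read 9.11, 9.01 and 8.79 in the Meg3 cultures and 9.67, 9.34 and 9.75 in the vector cultures, and the groups did not overlap, as in 12.8% of all genes (-0.62, SE 0.15; limma adjusted p = 0.201). Without the arrays that stood apart Itga6 and the collagen receptor chain Itga2, chosen likewise, were called lower (-0.81, SE 0.11, and -0.47, SE 0.10; limma adjusted p = 0.00237 and 0.0265). That fit called 4.01% of all genes lower.

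Genes of vesicle formation were not called. Of 15 genes of exosome and ESCRT function, 0 were called by limma and 1 was lower at an unadjusted p under 0.05, with a median difference of -0.07. Sdcbp, the syntenin gene, averaged 11.43 in the Meg3 clone and 11.38 in the vector clone (0.05, SE 0.16). Pdcd6ip, the gene of the syntenin partner ALIX, averaged 10.42 and 10.75 (-0.33, SE 0.11; limma adjusted p = 0.465). Without the arrays that stood apart Pdcd6ip and the vesicle docking GTPase gene Rab27a, chosen after its values were seen, were called lower (limma adjusted p = 0.0467 and 0.0422). Of all genes, 4.01% were called lower in that fit.

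The profile of Cd9 over the 6 arrays was set beside those of 10005 other genes whose higher clone mean exceeded the median gene, predicted genes left out, by the root mean square difference after centring each gene on its own mean. The most alike were Gatm, an enzyme of creatine synthesis (0.103), the kinase genes Nrk (0.133) and Prkd3 (0.170), Tfpi, a coagulation inhibitor (0.182), and the protocadherin gene Pcdhb2 (0.188). In Nrk, Prkd3, Tfpi and Pcdhb2 the Meg3 mean lay below the median gene, at 5.90, 5.50, 6.40 and 6.08, so these genes entered the comparison through the vector clone alone. Gatm read 6.94, 6.88 and 6.62 in the Meg3 cultures and 8.58, 8.05 and 8.74 in the vector cultures, with vector replicate 2 low as for Cd9. Cd82 ranked 16 of the 10005, with a difference of 0.289. Cd151 ranked 681, Cd81 1821, Cd63 3070 and Tspan4 9167. Since Cd9 was chosen for its difference between the clones, this order is a description.

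Genes beside Cd9 on chromosome 6 were not called with it. Of the 10 nearest measured genes on either side, 0 of 20 were called by limma, and their median difference was -0.01 (range -0.52 to 0.38). Over all genes 0.666% were called, so nothing is read from 0 of 20. The lowest was Dyrk4 (-0.52, SE 0.12), named after its values were seen. Cd82 on chromosome 2, examined in the same way after its values were seen, likewise had 0 of 20 neighbours called (median 0.04, range -0.60 to 0.22). Among them Hsd17b12, named likewise, differed by -0.44 (SE 0.17).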

How the data were processed

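From each of the 6 cultures (3 Meg3, 3 vector), 6 µg RNA went onto an Affymetrix array after biotin labelling, per the labels. The authors deposited log2 values, 1 for each probe set and array. The submitters' processing notes name RMA and Partek, with versions and build not given in the sources used here. Of the table's 241419 probe sets, the array annotation gives 1 symbol to 212097, while 4475 have several and 24847 have no symbol. Probe sets with 1 symbol were averaged to 20416 genes (median 8 probe sets). Symbols were updated through the GRCm38.p6 gene table (20363 matched, 2742 of them as synonyms). Precision is limited by the number of arrays.

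The comparison used lmFit and eBayes of limma 3.58.1 (R 4.3.3), two-sided, without covariates or filter, with adjustment over all genes. This step was tested on simulated data. An exact permutation test of 3 against 3 cannot give p under 0.1. The members, gene lists and alternatives were chosen with earlier results of these data known. Named were all members, called tetraspanins and list genes, the 2 largest differences each way among other tetraspanins above the median gene, the 2 brightest genes of lists without a call, and the 5 genes most like Cd9. Alternatives were a replicate block, centring, repeated quantile normalization, a filter on dim genes, other probe set summaries, other variance models, array weights and leaving out arrays; leaving out both arrays that stood apart was added after seeing the data.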

Additional observations from a re-analysis of the deposited data

How the results depend on the processing

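Of the 41 higher and 95 lower genes, the count moved by more than 1.5 times to 11 higher and 19 lower with a replicate block, 16 and 42 with the median of probe sets, 12 and 28 with the brightest probe set, 0 and 0 with an ordinary linear model, 1063 and 1619 with array weights, whose fit stopped before it converged, and 292 and 819 without both arrays that stood apart. Leaving out 1 array at a time gave 8 to 78 higher and 14 to 271 lower. The 2 members called lower became 1 with a replicate block or the brightest probe set, 0 with an ordinary linear model and 4 with array weights, where Cd151 and Cd81 joined (-0.83 and -0.36). Leaving out 1 array gave 0 to 2, with 0 without Meg3 replicate 2 or 3. Without both arrays that stood apart 3 were called. The 0 other tetraspanins called became 2 lower with array weights and 2 lower without both arrays, and 0 to 1 when 1 array was left out. Over all genes 1619 of 20416 were called lower with array weights and 4.01% without both arrays. Nothing is therefore read from these counts of members and other tetraspanins. Cd9 kept its direction in all 17 alternatives, from -2.03 to -1.30, and -1.60 to -1.91 with 1 array left out. Its difference of -1.74 did not pass the threshold with an ordinary linear model, nor did Cd9 without Meg3 replicate 2 (-1.75) or Meg3 replicate 3 (-1.60), so that it was lost in 3 of 17. Cd9 was chosen for its difference on these same arrays, so its refits, and the member counts that include it, are no support for that difference. Cd82 kept its direction too, and its call was lost in 8 of 17, among them the replicate block (adjusted p = 0.126). Differences near 0 changed sign. Without vector replicate 2 Cd63 stood at 0.0070, Tspan4 at -0.0750 and Cd53 at 0.0644, and their ranges with 1 array left out were -0.2134 to 0.0070, -0.0750 to 0.4634 and -0.2177 to 0.0644. Cd53 stood at 0.0838 without both arrays. Tspan12 stood at 0.0011 with centred arrays, 0.15 with the median of probe sets or with brighter probe sets only, 0.29 with the brightest, 0.0103 with array weights and -0.0625 to 0.0557 with 1 array left out, above 0 without Meg3 replicate 2 or vector replicate 2. Cd53 gave no value with brighter probe sets only, nor did Cd53 and Tspan12 where the dimmest 30% of genes were left out. The cause of these changes was not tested.

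Replicate numbers are shared by the groups, but same-numbered arrays did not deviate together: their correlations were -0.61, -0.63 and 0.28 for numbers 1, 2 and 3. Across different numbers they ran from -0.54 to 0.65. The highest was that of the arrays that stood apart, Meg3 replicate 1 and vector replicate 2, which thus deviated alike. Meg3 replicate 2 and vector replicate 1 gave 0.60. Deviations were taken from the mean of each group and cancel within it, so this value is not independent of the highest. Why arrays of different number deviated together was not tested. The numbers were therefore not taken as a pairing, and the block is given only here.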
